A study of Mus musculus with 14 samples.

Results

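Splenic CD8+ classical dendritic cells (cDC) were compared with bone marrow neutrophils (Neu) on 4 single-colour Agilent oligonucleotide arrays, 2 for each cell type, out of 14 arrays in the series. The arrays were chosen by their labels alone, WT_CD8+_cDC and WT_Neu, and lie on 1 slide. Both groups were primary cells of wildtype C57BL/6 mice. The cDC were taken from spleen as CD11c+ MHC-II+ CD4- CD8+ cells, by magnetic sorting and then flow sorting. The neutrophils were taken from bone marrow as CD11b+ Ly6G high cells by flow sorting without the magnetic step. Tissue of origin and sorting method therefore cannot be told apart from cell type in any difference given here. The labels do not say whether the 2 arrays of a group came from separate mice, so p-values reflect no more than the scatter of these samples, possibly technical. That scatter was estimated over 12 arrays of the series, which include progenitors of IRF8 knockout mice. In RNA of sorted populations, a gene carried by few of the cells and a gene carried at a low level by all of them cannot be told apart.

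CD8+ cDC and neutrophils both descend from myeloid progenitors of the bone marrow. CD8+ cDC, the mouse form of the cDC1 lineage, depend on the transcription factors IRF8 and BATF3, take up dead cells, and present their antigens to CD8+ T cells on MHC class I and to CD4+ T cells on MHC class II. Neutrophils are short-lived phagocytes that mature under C/EBP-epsilon and GFI1, pack antimicrobial proteins into successive sets of granules, and kill microbes with these proteins and with the oxidants of the NADPH oxidase. IRF8 is also known to hold back granulocyte development in shared progenitors.

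All values below are log2 levels of the array signal relative to the array's own 75th percentile, and differences are cDC minus neutrophil, so that 1 unit is a 2-fold change. Values of each gene are those of its brightest probe, SE is the standard error of the fitted difference, and n = 2 arrays a group throughout. Of 20284 genes with a named probe, 12817 exceeded background clearly on each array of 1 group or of both and were tested. At an adjusted p under 0.05 in limma, 11012 genes (85.9%) differed, 5631 of them (43.9%) higher in cDC and 5381 (42% of the genes tested) higher in neutrophils. Requiring at least 2-fold left 58.4% of the genes tested, 32.2% higher in cDC and 26.2% in neutrophils. With a difference of at least 4-fold required, 2639 genes (20.6%) were higher in cDC and 1727 (13.5%) in neutrophils. The median difference over all genes tested was 0. A gene well above background in 1 group alone entered the test through its signal there, which favours a difference in that direction. In this way 1833 genes entered through cDC and 424 through neutrophils. The lowest signal well above background was 16.6 and 18.4 on the cDC arrays and 19.5 and 19.3 on the neutrophil arrays. Relative to the array's 75th percentile this floor was lower in cDC, so a gene at equal levels could enter through cDC alone. Its part in the 2 counts was not tested. Among the 9975 genes well above background on all 4 arrays, 12.2% were at least 4-fold higher in cDC and 12.6% in neutrophils. Given these shares, a call in itself says little about a gene list, and lists are described by their members at least 4-fold apart and by their median. These counts use fitted differences. A gene not well above background in 1 group is given as an at-least fold, its mean in the brighter group over the lowest signal that was well above background on the dimmer group's arrays, or over its own signal there where that was higher. Replicate arrays correlated at r = 0.997 for cDC and r = 0.994 for neutrophils across all genes, against 0.652 to 0.658 between the groups; genes are not independent replicates. The 75th percentile of the signal was 211 and 281 on the cDC arrays and 151 and 137 on the neutrophil arrays, and 41.6% to 50.5% of probes were well above background.

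The labels were checked against genes of the gates, which are no findings. Itgax, encoding CD11c, was 3.56 higher in cDC. The class II genes H2-Aa, H2-Ab1 and H2-Eb1 were 7.76 to 10.88 higher in cDC. Cd8a was not well above background in neutrophils and was at least 118-fold higher in cDC, while Itgam, encoding CD11b, was higher in neutrophils (-2.95). The brightest Cd4 probe differed by -0.60 and a second probe by 0.15, and Ly6g had no named probe. Each measured gate gene for which the gates differ thus lay on its labelled side.

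Markers of other cells were present at unequal levels. Hemoglobin transcripts were higher in cDC: Hba-a1 lay at 7.50 and 7.63 in cDC against 2.64 and 2.72 in neutrophils, and the summed signal of 10 erythroid markers was 379 and 402 times the array's 75th percentile in cDC and 15.9 and 16.5 in neutrophils. Of the 6 erythroid markers tested, 5 were called higher in cDC and 1, Car1, in neutrophils. Alas2 read 2.12 and 2.31 in cDC against -3.16 and -2.91 in neutrophils, and Slc4a1 averaged 0.70 against -1.28. The red cell precursor markers Klf1, Gata1 and Epb42 were not well above background in either group. Jchain, a plasma cell transcript, was 5.25 higher in cDC, with Sdc1 and Tnfrsf17 not well above background in either, and the summed signals of the 5 plasma cell markers were 61.3 and 62.8 in cDC and 51.3 and 53.6 in neutrophils. Of 11 red pulp macrophage markers, 7 were called higher in cDC, among them Spic (3.56) and Vcam1 (3.71), and Slc40a1 and Adgre1 were higher in neutrophils; Cd163 was not well above background in either. The summed signals of these 11 markers were 37 and 27.1 in cDC and 65.6 and 68.3 in neutrophils.

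The T cell gene Cd3d (-5.67, SE 0.63) was higher in neutrophils, while Cd3g was not well above background in either group. The 10 T cell markers summed to 23.3 and 24.3 in neutrophils and 7.18 and 7.13 in cDC. Of the 9 tested, 2 were called higher in cDC and 5 in neutrophils, with 2 on each side by at least 4-fold. Siglecf, an eosinophil receptor, was at least 63.1-fold higher in neutrophils, with Epx and Prg3 not well above background in either group. Sums of the 6 eosinophil markers were 5.73 and 5.62 in neutrophils and 1.05 and 1.0 in cDC. Basophil markers (2.25 and 2.37 in neutrophils, 0.334 and 0.294 in cDC) and platelet markers (2.76 and 3.08, against 0.502 and 0.506) stayed low, with Cpa3, Fcer1a, Ms4a2 and Itga2b not well above background in either group. B cell markers summed to 7.30 and 7.44 in cDC and 5.81 and 5.80 in neutrophils with Pax5, Ebf1 and Blk not well above background, and NK markers to 3.14 and 3.04 against 1.57 and 2.06 with Ncr1 and Eomes not well above background. Of the 6 B cell markers tested, 1 was called higher in cDC and 4 in neutrophils. Monocyte markers summed to 37.1 and 36.8 in cDC and to 121 and 125 in neutrophils, where Csf1r gave most of the sum. Of the 9 monocyte markers tested, 5 were called higher in cDC and 3 in neutrophils, with a median of 1.76. By at least 4-fold these counts were 3 and 3. Markers of plasmacytoid dendritic cells summed to 340 and 283 in cDC and 453 and 466 in neutrophils, mostly from Siglech, whose probes disagree (-0.71 and 0.90). Of the 10 plasmacytoid markers tested, 4 were called higher in cDC and 6 in neutrophils. By at least 4-fold 3 were higher in cDC and none in neutrophils. Markers of cDC2 summed to 181 and 169 in cDC against 171 and 169 in neutrophils, but the sums hide differences between members. Mgl2 (means 7.36 in cDC and 6.41 in neutrophils) and Sirpa (0.61 and 6.36) were bright. Of the 10 cDC2 markers, 8 were called higher in cDC, 6 by at least 4-fold, and 1 higher in neutrophils. All 10 were well above background in cDC and 3 in neutrophils. Stem cell and progenitor markers summed to 18.7 and 19.1 in cDC against 3.42 and 3.54 in neutrophils. Those of endothelium and stroma summed to 34.1 and 25.9 against 48.1 and 47.5, with Cdh5, Pdgfrb and Col3a1 not well above background in either group. The part of these cells in the differences below was not tested.

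Among 16 transcription factors of dendritic cells, 9 were at least 4-fold higher in cDC and 2 at least 4-fold higher in neutrophils, with a median difference of 2.0. Irf8 stood at 8.71 and 8.53 on the cDC arrays and at 0.00 and 0.07 on the neutrophil arrays, a 385-fold difference (8.59, SE 0.07, limma adjusted p = 3.59e-11). Batf3, the partner of IRF8 on composite AP-1 sites, lay at 6.19 and 6.23 in cDC and at -2.66 and -2.53 in neutrophils (8.81, SE 0.15, adjusted p = 4.89e-10). Mycl, the MYC family member that replaces MYC in many cDC, was not well above background in neutrophils and was at least 104-fold higher in cDC. For each of these genes the arrays of the 2 groups were far from overlapping. Bcl11a (4.15), Id2 (2.73), Zbtb46 (2.73), Relb (2.45), Runx3 (2.01) and Tcf4 (2.0) were also at least 4-fold higher in cDC. Id2 holds back E proteins, Zbtb46 marks the classical lineage, and RELB acts in dendritic cell maturation. Spib (0.71) and Etv6 (0.69) were higher in cDC by less than 2-fold.

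Of the dendritic cell factors, 4 were called higher in neutrophils. Nfil3, which is required in mice for cDC1 development, lay at 5.02 on both neutrophil arrays and at 0.97 and 1.03 in cDC (-4.02, SE 0.08, adjusted p = 8.45e-10). Zeb2 (-2.73), Ikzf1 (-1.69) and the repressor Bcl6 (-1.54) were higher in neutrophils as well. Irf4, a factor of the cDC2 lineage, was not called (0.17, limma adjusted p = 0.893). Its neutrophil arrays read 1.57 and -2.89, on either side of cDC values of -0.52 and -0.45. Irf4 differed by 2.4 without the first neutrophil array and by -2.06 without the second, so no direction is given for it.

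Granulocyte factors lay on the neutrophil side: of 14, 12 were called, all higher in neutrophils, and 9 by at least 4-fold, with a median of -2.33. Cebpe, which drives the late granule programme, read 8.69 and 8.75 in neutrophils and -3.04 and -2.91 in cDC, 3310-fold apart (-11.69, SE 0.16, adjusted p = 1.71e-10). Gfi1, a repressor needed for neutrophil maturation, was at least 99.2-fold higher in neutrophils and not well above background in cDC. Klf5 (-7.26, well above background on 1 of 2 cDC arrays), Cebpd (-6.84), Cebpb (-5.59) and Rara (-3.62) followed. Cebpa, the C/EBP of earlier progenitors, differed less, at 1.93 on both neutrophil arrays and -0.63 and -0.42 in cDC (-2.46, SE 0.07). Bcl3 (-2.2), Klf2 (-2.14), Klf6 (-1.74), Myb (-1.73) and Stat3 (-1.49) were also higher in neutrophils. Runx1 (-0.07) and Rxra (-0.31) were not called.

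**Figure D1:**
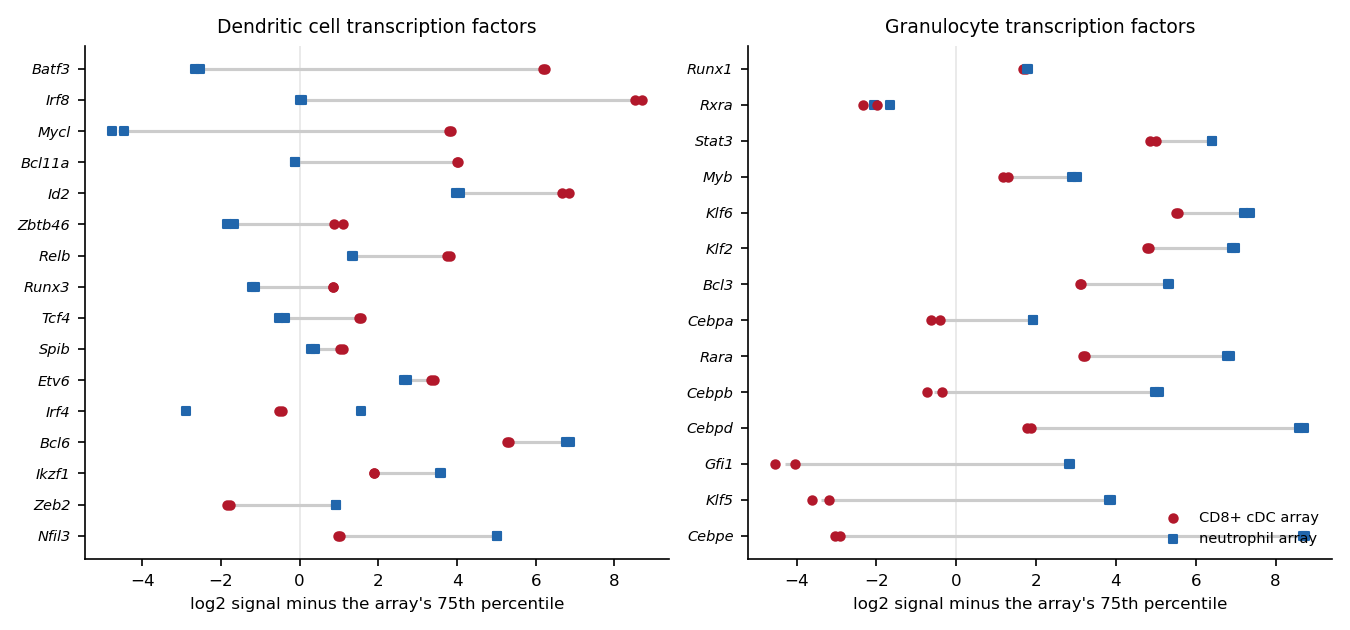
Transcription factors of dendritic cells (left) and granulocytes (right). The horizontal axis is the log2 signal minus the array's 75th percentile, each point is 1 array (red circles CD8+ cDC, blue squares neutrophils), grey bars join the group means, and genes are ordered by their difference. Irf8, Batf3 and Mycl show the widest gaps on the left with cDC on the right side of each bar, and Cebpe the widest on the right panel with neutrophils above; the 2 Irf4 squares lie at 1.57 and -2.89.

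The cDC1 programme was measured through 18 of 20 genes, and 16 of these were at least 4-fold higher in cDC, with a median of 6.20 at bounds (genes not well above background in neutrophils set at their at-least fold). Of these 18, 7 were well above background in both groups, with a median of 3.72 and 5 at least 4-fold higher in cDC. Clec9a, the receptor for actin exposed on dead cells, read 6.50 and 6.58 in cDC and -1.51 and -1.77 in neutrophils (8.18, SE 0.43). Xcr1, the receptor for the chemokine XCL1, was at least 77.5-fold higher in cDC, Cd207 at least 138-fold, the adhesion molecule Cadm1 at least 101-fold and the inhibitory receptor Btla at least 342-fold, none of them well above background in neutrophils. Naaa (5.79), Ppt1 (3.72) and Wdfy4 (2.90), which is needed in mice for cross-presentation, were measured in both groups and separated by less. Ly75, encoding DEC-205, was not called: cDC read -0.35 and -0.19 and neutrophils -0.04 and -0.24. For Septin3 the brightest probe differed by 0.29 and a second probe by 9.22, so the gene's difference depends on the probe.

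Dendritic cell core genes lay mostly on the same side, 13 of 18 at least 4-fold higher in cDC and none in neutrophils, with a median of 5.37 at bounds. Of the 11 well above background in both groups, 6 were at least 4-fold higher in cDC, with a median of 2.59. Flt3, the growth factor receptor on which cDC depend, stood at 6.05 and 6.21 in cDC and -2.88 and -2.27 in neutrophils, where 1 of 2 arrays was well above background (8.70, SE 0.17). Ccnd1 (8.03, well above background on 1 of 2 neutrophil arrays), Kmo (5.77) and Traf1 (5.46) were also higher, as was the peptidase Dpp4 by at least 101-fold. Haao (-0.50) and Spint2 (-0.30, with a second probe at 1.74) were slightly higher in neutrophils. Fgl2 (-0.21), Tbc1d8 (-0.02) and Adam19 (0.21) were not called. The corepressor gene Cbfa2t3 was 7.94 higher by its brightest probe, with another of its 3 probes at -0.16.

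In the list of MHC class II presentation genes, which includes the gate genes, 13 of 14 tested genes were at least 4-fold higher in cDC, at a median of 6.43, all 14 of them well above background in both groups, and Rfx5 was not well above background in either group. The cells were sorted on surface MHC-II, so the structural genes are no finding. Ciita, the class II transactivator, read 4.39 and 3.93 in cDC and -2.44 and -0.87 in neutrophils (5.81, SE 0.45, adjusted p = 4.18e-06). The invariant chain Cd74 (8.70), the peptide editors H2-DMa (7.63), H2-DMb1 (6.36) and H2-DMb2 (3.19), and their inhibitors H2-Oa (7.74) and H2-Ob (6.50) all stood higher in cDC. The endosomal enzymes Ifi30 (5.30), Ctss (4.24) and Lgmn (3.94), which reduce and cut antigen and invariant chain, did so as well. Marchf1, a ligase that removes class II from the surface, was higher in neutrophils by its brightest probe (-1.81) and higher in cDC by the other (0.98).

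Upstream sequence of class II genes is shown because these genes moved together and share a known promoter element, the Y box, bound by NF-Y. The letters CTGATTGG, which contain the CCAAT core, were searched on both strands in the 250 bases before each start site of the RefSeq promoters (GRCm38.p6). They occur before 3 of 11 class II genes with a promoter in that table, against 4.43% of all 27025 genes in it and 6.18% of the genes tested. The shares were 7.57% for genes at least 4-fold higher in cDC and 3.99% for those at least 4-fold higher in neutrophils. The 3 stretches of 72 bases follow, 5′ to 3′ along the gene's strand, with the match in capitals: H2-Aa at chr17:34287835-34287906 on the minus strand, H2-Eb1 at chr17:34305773-34305844 on the plus strand and H2-Oa at chr17:34092301-34092372 on the plus strand.
H2-Aa: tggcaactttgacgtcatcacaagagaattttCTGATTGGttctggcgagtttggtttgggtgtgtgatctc
H2-Eb1: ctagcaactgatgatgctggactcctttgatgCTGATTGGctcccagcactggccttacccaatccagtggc
H2-Oa: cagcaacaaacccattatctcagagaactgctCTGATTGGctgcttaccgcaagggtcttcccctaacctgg
The matches are a description of these letters and not of binding.

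MHC class I loading differed less. Of 18 genes, 14 were called higher in cDC but only 7 by at least 4-fold, with a median of 1.88. Nlrc5, the class I transactivator, read 4.53 and 4.43 in cDC and 0.36 and 0.59 in neutrophils (4.01, SE 0.13). Calr (2.63), Tapbpl (2.34), the peptide transporter subunit Tap1 (2.25), Pdia3 (2.14) and the immunoproteasome subunit Psmb8 (2.07) were higher in cDC, while Erap1 was at least 4.22-fold higher. The class I chains themselves were close: B2m read 8.13 and 8.08 in cDC and 7.99 and 8.10 in neutrophils (0.06), and H2-D1 differed by -0.14. Neither was called, nor was Tap2 (0.38, adjusted p = 0.1). Sec22b, placed in cross-presentation, was higher in neutrophils (-0.60).

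Maturation and costimulation genes were mixed, with 6 of 15 tested members at least 4-fold higher in cDC. Of the 9 members well above background in both groups, 2 were, and their median was 0.53. Cd83 read 6.70 and 6.81 in cDC and was at least 801-fold higher there. Ccr7, the receptor that guides dendritic cells to lymph nodes, was 8.18 higher (5.98 and 6.04 against -2.36 and -1.99). Cd40 was at least 70-fold, Cd200 at least 20.8-fold and the actin bundler Fscn1 at least 19.5-fold higher, and Cd86 was 4.91 higher. Ebi3 (-1.91) and Il15 (-1.73) were higher in neutrophils, and Cd70 was not called (1.40). Cd80 differed by -3.90 through its brightest probe and by 0.85 through the other, so that no direction is given for it; by the brightest probe it was the 1 member at least 4-fold higher in neutrophils.

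Granule genes gave the widest separation on the neutrophil side. Secondary granule genes were higher in neutrophils for all 12 tested members and by at least 4-fold for 11, with a median of -11.65 at bounds. Mmp8, neutrophil collagenase, read 9.71 and 9.73 in neutrophils and was not well above background in cDC, a difference of at least 11800-fold. Lactoferrin, Ltf, read 10.56 and 10.63 against -2.36 and -1.87 (-12.71, SE 0.26). Ngp (-13.50, well above background on 1 of 2 cDC arrays), the siderophore binder Lcn2 (-12.00), Chil3 (-11.71), the cathelicidin Camp (-11.58), Hp (-10.83), Pglyrp1 (-7.88) and lysozyme, Lyz2 (-6.04), were higher in neutrophils, as were Itgb2l by at least 3960-fold and Cd177 by at least 1430-fold. Adam8 was the exception in size, at 8.58 and 8.74 in neutrophils and 7.25 and 7.40 in cDC (-1.33).

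Upstream sequence of secondary granule genes is shown for the letters TTGCNNAA, 1 form of the C/EBP recognition sequence, searched in the same way on both strands. They occur before 5 of the 11 secondary granule genes with a promoter in the table (Adam8, Lcn2, Ltf, Mmp8 and Ngp), against 10.8% of all genes in it and 9.3% of the genes tested. The shares were 11.7% for genes at least 4-fold higher in neutrophils and 7.85% for those at least 4-fold higher in cDC. The matches lie in capitals in the following stretches: Mmp8 at chr9:7558357-7558428, Ngp at chr9:110419736-110419807 and Ltf at chr9:111019185-111019256 on the plus strand, and Lcn2 at chr2:32387916-32387987 on the minus strand.
Mmp8: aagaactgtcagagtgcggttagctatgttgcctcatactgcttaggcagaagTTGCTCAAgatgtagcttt
Ngp: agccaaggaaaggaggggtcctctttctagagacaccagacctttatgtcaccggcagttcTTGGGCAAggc
Ltf: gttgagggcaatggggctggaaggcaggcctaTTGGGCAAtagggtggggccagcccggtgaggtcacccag
Lcn2: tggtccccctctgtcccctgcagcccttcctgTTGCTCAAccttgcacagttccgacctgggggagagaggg
The capitals of Ngp and Ltf match on the opposite strand, and Ngp holds a second match outside the stretch shown.

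Primary granule genes, which are made by promyelocytes before the others, were less far apart. Of 10 tested, 9 were higher in neutrophils, 6 by at least 4-fold, with a median of -2.43 at bounds. Only 6 were well above background in both groups, 2 of them at least 4-fold higher in neutrophils, with a median of -0.64. Mpo, myeloperoxidase, read 3.83 and 3.90 in neutrophils and -1.94 and -2.15 in cDC (-5.91, SE 0.08). On the wild-type granulocyte-monocyte progenitor (GMP) arrays the same probe averaged 9.49, above both. Ctsg (at least 37-fold), Fcnb (at least 27.8-fold), Ms4a3 (at least 16-fold), Prtn3 (at least 7.09-fold) and Prss57 (-2.04) were higher in neutrophils. Elane, neutrophil elastase, differed by only -0.61, at 2.68 and 2.61 in neutrophils and 2.07 and 2.0 in cDC, against a mean of 8.48 in GMP. Nkg7 (-0.63) and Cst7 (-0.65) were as close, and Bpi was not well above background in either group. Ctsc, the protease that activates granule serine proteases and serves elsewhere in lysosomes, was higher in cDC (1.38).

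Tertiary granule and late neutrophil genes followed the secondary ones: all 17 tested were higher in neutrophils, 15 by at least 4-fold, with a median of -8.74. Among the 11 well above background in both groups, 9 were at least 4-fold higher in neutrophils, with a median of -6.76. Mmp9, gelatinase B, was at least 2690-fold higher, Padi4, the enzyme that citrullinates histones, at least 2700-fold and Trem3 at least 928-fold. Retnlg (-11.77), Lrg1 (-10.45), Slpi (-7.74), G0s2 (-7.16), the membrane metalloproteinase Mmp25 (-6.76) and the MYC antagonist Mxd1 (-4.84) were measured in both groups and were higher in neutrophils. Csf3r, the G-CSF receptor, was bright on all arrays, at 9.28 and 9.38 in neutrophils and 8.57 and 8.28 in cDC (-0.90, SE 0.10), and Slc11a1 differed by -1.16.

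Stefins, small inhibitors of cysteine proteases clustered in the mouse genome, were higher in neutrophils: Stfa1 by at least 1790-fold, Cstdc4 (-11.71) and Stfa3 (-9.77), both well above background on 1 of 2 cDC arrays, Stfa2l1 (-8.55) and Stfa2 (-7.84). Their sequences are close to each other, so signal may be shared between members. Cst3, cystatin C, was the 1 member higher in cDC (9.92 and 9.63 against 7.17 and 7.21).

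S100 proteins divided by member. S100a8 and S100a9, the subunits of calprotectin, were higher in neutrophils (differences of -8.70 and -6.89), and S100a6 (-6.97) and S100a11 (-3.58) also lay on that side. S100a4 was higher in cDC, at 4.18 and 4.22 against -0.06 and 0.06 (4.2, SE 0.08), with S100a10 (1.70) and S100a1 (1.19) on the same side. S100a5 was not called (-0.57).

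All 9 genes of the phagocyte oxidase list were higher in neutrophils, 6 by at least 4-fold, with a median of -4.32. Cybb, the catalytic subunit gp91phox, read 5.15 and 5.25 in neutrophils and -1.86 and -1.95 in cDC (-7.11, SE 0.23). The regulatory subunit Ncf4 (-2.64), the partner chain Cyba (-1.76) and Rac1 (-1.19) differed less and were measured well above background in both cell types. Leukotriene genes ran the same way: Alox5, the enzyme that starts leukotriene synthesis, differed by -10.67, the leukotriene B4 receptor Ltb4r1 by -10.18, Ptgs1 by -5.12 and Lta4h by -3.18. Hpgd, which breaks down prostaglandins, was at least 14.5-fold higher in cDC, and Ptgs2 (-0.23) and Ltc4s (-0.15) were not called.

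Receptors that guide migration separated in opposite directions, with 7 of 20 at least 4-fold higher in cDC and 10 in neutrophils. For the 9 well above background in both groups these counts were 2 and 5, with a median of -3.55. On the neutrophil side stood the formyl peptide receptors Fpr2 (-11.31, well above background on 1 of 2 cDC arrays) and Fpr1 (-9.76), Cxcr2 (-11.21, also on 1 of 2), the complement receptor C5ar1 (at least 334-fold), Cxcr1 (at least 43-fold) and Ccr1 (at least 20-fold). Cxcr4, which retains neutrophils in marrow, differed by -3.55. On the cDC side stood Ccr7, Xcr1, Ccr9 (5.2, well above background on 1 of 2 neutrophil arrays), Cxcr3 (4.45), Ccr2 (at least 11.3-fold) and Cx3cr1 (at least 10.9-fold). Ccrl2 (-0.48) and Ccr3 (0.17) were not called. Of 13 chemokine ligands tested, 6 were at least 4-fold higher in cDC and 2 in neutrophils. Among the 8 well above background in both groups these counts were 3 and 2, with a median of -0.37, so the list has no single direction. The cDC side included Ccl5 at 6.45 and 6.49 against -0.15 and -0.07 (6.58) and Cxcl9 by at least 132-fold. Ccl6 (-5.93) and Pf4 (-2.84) were higher in neutrophils.

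Of 23 cytokine and growth factor receptors, 16 were called higher in neutrophils and 6 in cDC, with a median of -1.07. At least 4-fold higher were 3 in neutrophils (Il17ra at -3.86, Tnfrsf1a at -2.62 and Csf1r at -2.53) and 5 in cDC. Among the 20 well above background in both groups these counts were 3 in neutrophils and 2 in cDC, with a median of -1.4. Il6st, the gp130 chain shared by the interleukin-6 family, was at least 49.6-fold higher in cDC while Il6ra was higher in neutrophils (-1.48). The interleukin-10 receptor split as well, Il10ra at 4.50 and Il10rb at -1.46, and so did the interferon-gamma receptor, Ifngr1 at 1.55 and Ifngr2 at -1.55. Kit was 2.96 higher in cDC, and Il3ra was not called (-0.04). The 2 chains of a receptor thus lay on opposite sides in 3 cases, in which each value is a difference for 1 probe and not a comparison of the chains' amounts.

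Lectins and Fc receptors were called higher in neutrophils for 13 of 20 members and in cDC for 6, by at least 4-fold for 10 and 5 of them. For the 12 well above background in both groups, 7 were at least 4-fold higher in neutrophils and 1 in cDC. Clec4d read 8.04 on both neutrophil arrays and -2.02 and -1.78 in cDC (-9.94), and Clec4e (-9.09), Pilra (-8.68), Fcgr3 (-5.92), the Fc receptor gamma chain Fcer1g (-5.65) and Fcgr4 (-5.55) had the same direction. Fcgrt, the neonatal Fc receptor, was 6.22 higher in cDC, but its neutrophil arrays read -0.01 and -4.33, with 1 of 2 well above background, and Cd209a was at least 9.34-fold higher in cDC. Fcgr1 was not called (0.81). Of adhesion genes, Itgb2 (-2.28) and Cd44 (-1.95) were higher in neutrophils, and Icam1 (at least 31.8-fold), Itgb1 (2.96), Itga4 (2.10) and Itgb7 (1.87) were higher in cDC. Pecam1 was not called (0.22).

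Toll-like receptors (TLR) divided between the cell types, 5 of 21 tested genes of the list at least 4-fold higher in cDC and 8 in neutrophils. Among the 14 well above background in both groups these counts were 1 and 5, with a median of -1.39, so the division depends on genes measured in 1 group. Tlr11 and Tlr12, which in mice sense profilin of Toxoplasma, read 5.06 to 6.06 in cDC, were not well above background in neutrophils and were at least 248-fold and 490-fold higher in cDC. Tlr3, the receptor for double-stranded RNA, was at least 24.6-fold higher there, as were the RP105 receptor Cd180 (at least 7.39-fold) and its partner Ly86 (7.25). Higher in neutrophils were the flagellin receptor Tlr5 (at least 26.2-fold), Tlr8 (at least 13.1-fold), Tlr4 (-3.14), Tlr6 (-3.06), Tlr2 (-2.34) and Tlr13 (-2.30). Irak3, an inhibitor of TLR signalling, was at least 198-fold higher in neutrophils, and the adaptors Tirap (-3.12) and Myd88 (-1.63) were higher there too, while Ticam1, the adaptor of TLR3, was higher in cDC (1.01). Tlr9 was not called, at 3.26 and 3.11 in cDC and 3.28 and 3.22 in neutrophils (-0.06).

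**Figure D2:**
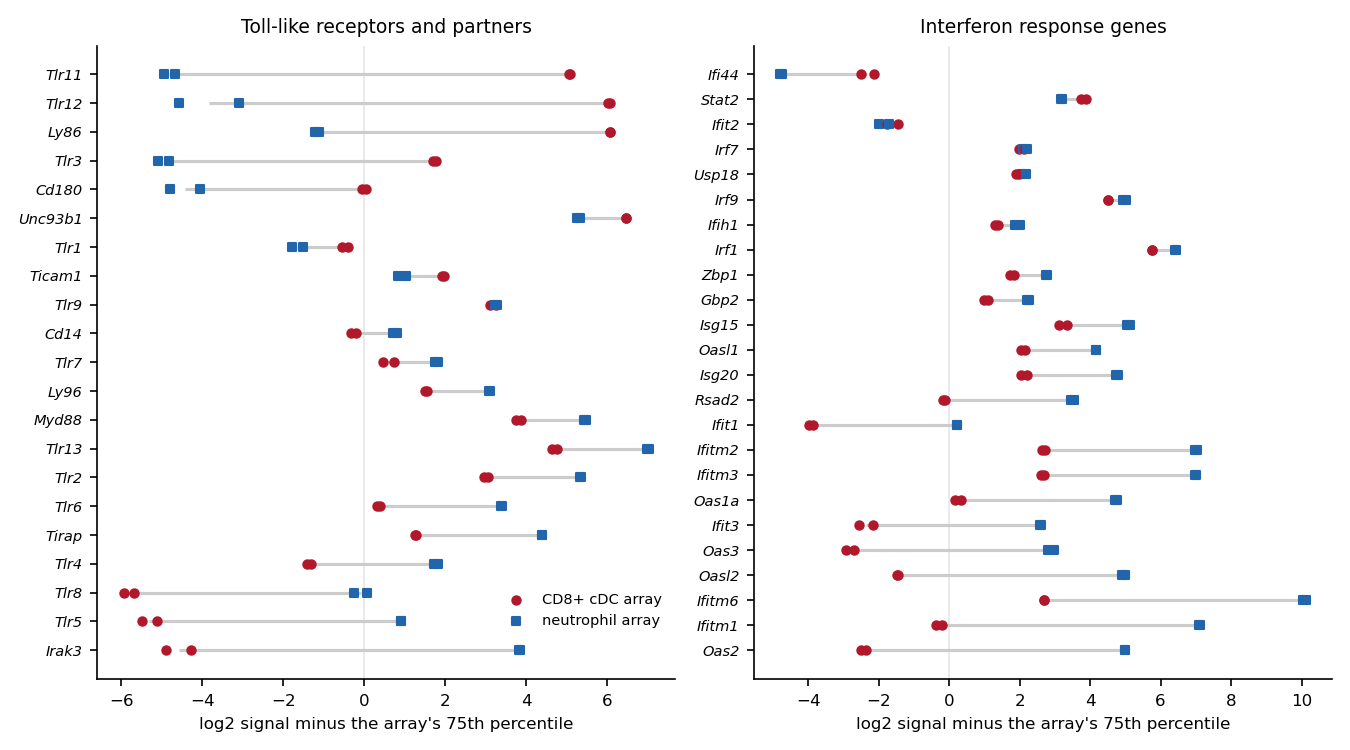
Toll-like receptors with their partners (left) and the interferon response genes reported here (right), plotted as log2 signal minus the array's 75th percentile for each array (red circles CD8+ cDC, blue squares neutrophils, grey bars between group means). Toll-like receptor genes fall on both sides, from Irak3 at the bottom to Tlr11 at the top, whereas most interferon response genes have their squares to the right of their circles.

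In the interleukin-1 and inflammasome list 9 of 15 tested genes were at least 4-fold higher in neutrophils and 2 in cDC. Il1r2, the decoy receptor for interleukin-1, read 5.13 and 5.18 in neutrophils and -3.58 and -3.59 in cDC, where 1 of 2 arrays was well above background (-8.74). The antagonist Il1rn was at least 34.8-fold higher, and Il18bp (-4.34), Casp4 (-3.38), Casp1 (-2.2) and Il1b (-2.19) followed. Il18 was higher in cDC (2.42), as were Aim2 (1.28) and Nlrc4 (at least 2.36-fold). Pycard, the adaptor ASC, was not called (0.03).

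Interferon response genes were mainly higher in neutrophils: 13 of 25 by at least 4-fold, with a median of -2.07 against 0 over all genes tested. Oas2 read 5.0 and 4.98 in neutrophils and -2.50 and -2.36 in cDC (-7.42, SE 0.07, adjusted p = 4.52e-11). The restriction factors Ifitm1 (-7.40), Ifitm6 (-7.39) and Ifitm3 (-4.35), the 2′-5′ oligoadenylate synthetase family members Oasl2 (-6.40), Oas3 (-5.69) and Oas1a (-4.49), and Ifit3 (-4.95) ran the same way. The transcription factors of the pathway were closer: Irf1 (-0.66) and Irf9 (-0.45) were higher in neutrophils, Stat2 (0.63) in cDC, and Irf7 (-0.08) was not called. Usp18 (-0.18) and Ifit2 (0.24) were not called either. Ifi44, not well above background in neutrophils, was at least 1.49-fold higher in cDC.

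The core of the interferon-stimulated response element, a pair of GAAA repeats with any 2 bases between them, was searched on both strands of the same 250 bases. It is shown because most of these genes were higher in neutrophils. It occurs before 9 of 21 interferon response genes with a promoter in the table, against 3.46% of all genes in it and 3.36% of the genes tested. Among genes at least 4-fold higher in neutrophils the share was 4.35%, and among those at least 4-fold higher in cDC it was 3.45%. The stretches with the widest differences are given with the matches in capitals: Oas3 at chr5:120777694-120777765 and Oas1a at chr5:120907526-120907597 on the minus strand, and Ifit3 at chr19:34583376-34583447 on the plus strand.
Oas3: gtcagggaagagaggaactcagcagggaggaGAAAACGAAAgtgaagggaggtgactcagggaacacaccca
Oas1a: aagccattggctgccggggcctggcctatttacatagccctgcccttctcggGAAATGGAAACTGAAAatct
Ifit3: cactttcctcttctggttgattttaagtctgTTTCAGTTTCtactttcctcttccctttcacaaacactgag
Oas1a holds 2 overlapping matches, and the capitals of Ifit3 match on the opposite strand, with a second match outside the stretch shown.

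Genes of proliferation and growth were higher in cDC. Of 24 cell cycle genes tested, 23 were called higher in cDC, 16 by at least 4-fold, at a median of 2.44 at bounds; 21 were well above background in both groups, 14 of them at least 4-fold higher in cDC. Replication licensing genes led, Mcm3 at 4.40 and 4.55 against -0.37 and -0.26 (4.79, SE 0.07), Mcm2 at 4.30 and Mcm5 at 3.97. Mki67 (2.44), Top2a (2.67) and Ccnb1 (1.61) were also higher, and Tyms was not called (-0.04). The probes of Cdk1 (-0.01 to 2.74) and Tpx2 (-0.24 to 2.65) disagreed. Ribosome biogenesis genes were further apart, 15 of 16 at least 4-fold higher in cDC with a median of 3.36 at bounds, and 9 of the 10 measured in both groups: the methyltransferase Fbl (5.63), nucleophosmin, Npm1 (4.91, at 6.91 and 6.93 against 2.0 and 2.02), Nop58 (4.90), and Myc itself by at least 12.3-fold. Polr1a was the exception, higher in neutrophils (-0.95).

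Cytosolic ribosomal protein genes lay almost all on the cDC side: 78 of 79 tested were called higher in cDC, 40 by at least 4-fold, with a median of 2.04. Among those 78 the differences ran from 0.16 for Rps9 to 4.61 for Rpl10a. Rpl3l, a striated muscle paralogue, was the 1 gene higher in neutrophils (at least 8.66-fold). Respiratory chain genes lay on both sides, 41 of 79 called higher in cDC and 25 in neutrophils, with a median of 0.17 and 4 beyond 4-fold.

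Sugar metabolism lay on the neutrophil side. Of 20 glycolysis genes 16 were called higher in neutrophils, 9 by at least 4-fold, against 1 in cDC, with a median of -1.97. The glucose transporter Slc2a3 read 7.56 and 7.57 in neutrophils and -0.36 and -0.49 in cDC (-7.99, SE 0.07), the lactate exporter Slc16a3 differed by -7.21 and Pfkfb4, which sets fructose-2,6-bisphosphate, by -6.23. Aldoc (2.61), Pfkl (1.35) and Pfkp (0.72) were higher in cDC, and Pfkfb3 was not called (0.13). Glycogen and pentose phosphate genes ran with glycolysis, 9 of 14 at least 4-fold higher in neutrophils and none called higher in cDC: liver-type glycogen phosphorylase, Pygl, read 9.93 and 9.98 against 1.77 on both cDC arrays (-8.18), and the first pentose phosphate enzymes G6pdx (-5.12) and Pgd (-4.84) followed. Rpia (-0.15) and Pgm1 (-0.13) were not called.

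Sterol genes were closer, 5 of 18 at least 4-fold higher in cDC, with a median of 0.52; of the 15 well above background in both groups, 2 were. Scd2 (3.77) was higher in cDC and Sc5d (-1.46) in neutrophils, and Mvd, Idi1, Insig1 and Srebf2 were not called. Lysosomal genes had a median of -0.01 and differed by member: Ctsd, cathepsin D, lay at 8.03 on both neutrophil arrays and 1.99 and 1.97 in cDC (-6.05), with Cd63 (-3.51) and Lamp2 (-2.91) on the same side, while Gusb (3.96) and prosaposin, Psap (2.21), were higher in cDC. Ctsh (0.04) was not called. In the iron list the exporter Slc40a1 (-4.61) and the ferritin chains Fth1 (-1.27) and Ftl1 (-1.05) were higher in neutrophils, and the transferrin receptor Tfrc (2.08) in cDC. Hmox1 was not called, with cDC arrays at 3.71 and 1.08; it differed by -0.99 without the first of these and by 1.65 without the second, so its direction rests on which array is kept. The brightest Slc11a2 probe was at least 15.8-fold higher in cDC and a second probe differed by 0.64.

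Nuclear envelope genes, among which lamin levels and the lamin B receptor shape the lobed neutrophil nucleus, lay on both sides, with a median of -0.42. The lamin B receptor Lbr, needed for lobulation in mice and humans, was higher in neutrophils (6.13 and 6.29 against 2.66 and 2.54, -3.61), as were the linker genes Sun2 (-3.08), Syne2 (-3.06) and Syne1 (-2.87), Lmnb1 (-1.04) and Lemd3 (-0.64). Lmna, encoding lamins A and C, was at least 16-fold higher in cDC, and Banf1 (3.31), Tmpo (0.39) and Emd (0.33) were higher there. Lmnb2 (-0.20) and Sun1 (0.02) were not called. Of the BCL2 family, Bcl2a1d (5.64), Bcl2 (2.86, well above background on 1 of 2 neutrophil arrays) and Bax (2.31) were higher in cDC, and Bcl2l1 (-2.2) and Mcl1 (-1.04), which protects neutrophils in mice, were higher in neutrophils. Bak1 was not called (-0.03). Sequence shared by the Bcl2a1 copies may add to the Bcl2a1d signal.

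Immediate early and heat shock genes, which can be induced during cell preparation, were mostly higher in cDC: 9 of 17 tested by at least 4-fold, against 1 in neutrophils, and 6 against 1 among the 14 well above background in both groups. Fos read 4.64 and 4.67 in cDC and -0.39 and -0.33 in neutrophils (5.02), Egr1 was at least 117-fold and Hspa1a at least 27.7-fold higher in cDC, and Nr4a1 differed by 2.96. Ier3 was higher in neutrophils (-3.53), and Btg2 was not called (0.05). Of 9 genes often used as references, 5 were called higher in cDC and 4 in neutrophils, from Gusb at 3.96 to Ywhaz at -1.23, and Actb differed by -0.78.

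**Figure D3:**
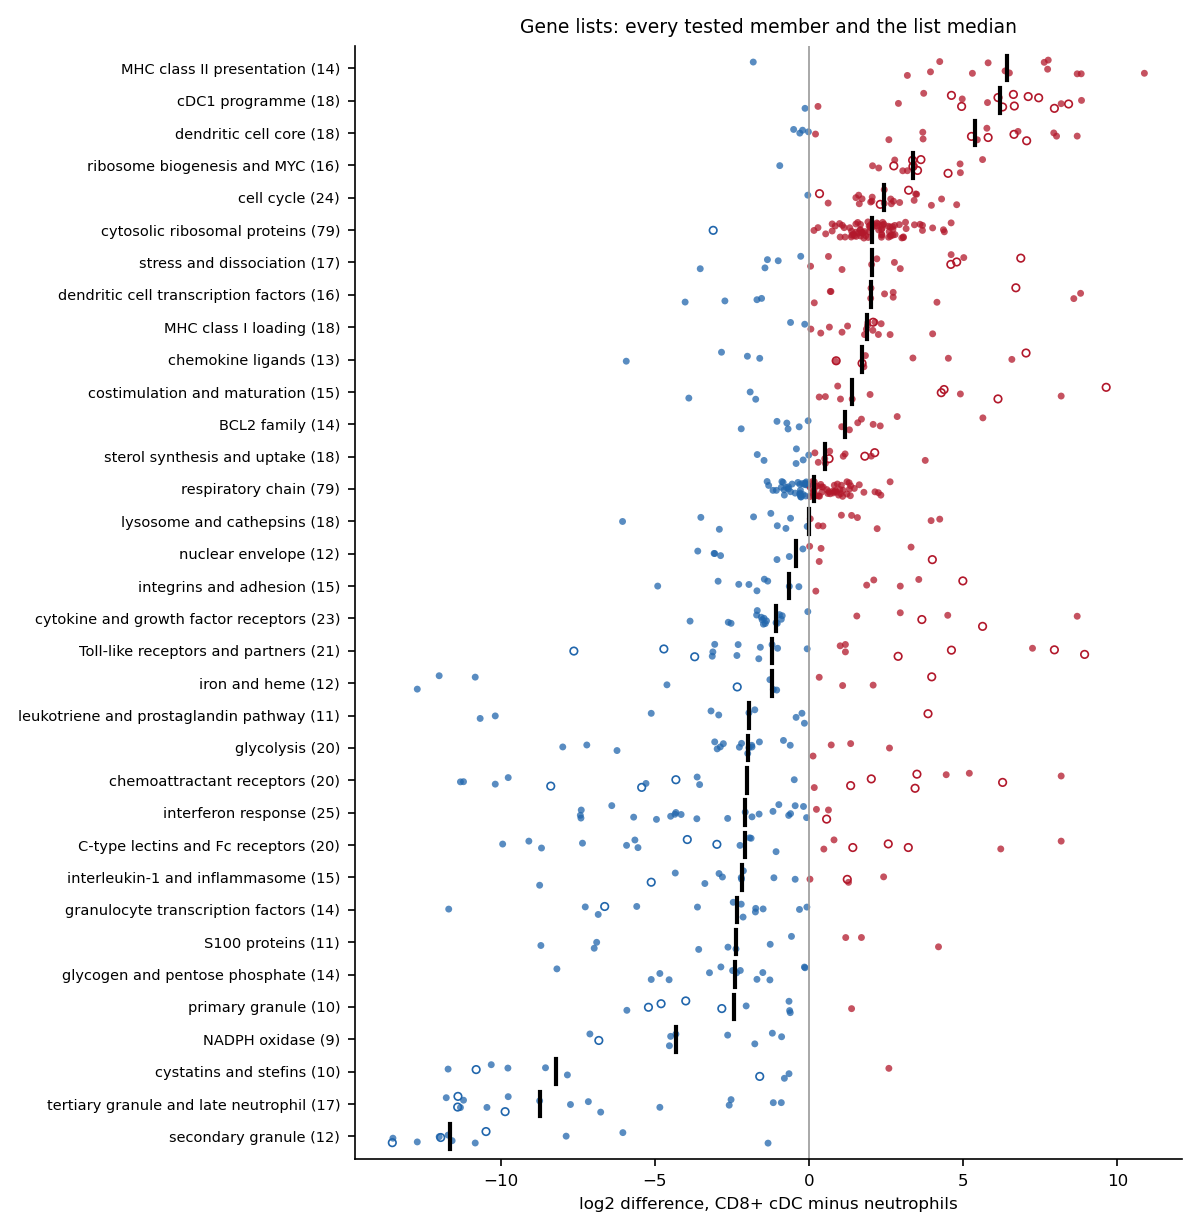
Differences of every tested member of the gene lists. The horizontal axis is the log2 difference, CD8+ cDC minus neutrophils; each filled point is a fitted difference, each open point is an at-least bound, black bars are list medians at these bounds, and the number of tested genes is in brackets. Lists are ordered by median, from 6.43 for MHC class II presentation at the top to -11.65 for secondary granule genes at the bottom.

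Genes with the largest differences that belong to none of these lists were also described. Among genes measured on all 4 arrays, Dnase1l3, an endonuclease that digests DNA in chromatin, was 7.74 higher in cDC and Aif1, an actin-binding protein of macrophages, 7.70 higher. Wfdc21, a whey acidic protein family member, read 10.18 and 10.26 in neutrophils and -2.57 and -2.89 in cDC (-12.95), and the glutathione transferase Mgst1 (-10.92), the receptor Mrgpra2a (-10.75) and the factor Nfe2 (-10.60) had the next differences. Among genes dim in 1 group, the peptidase Anpep, or CD13, was at least 941-fold higher in cDC, followed by Gpr141b (506-fold), the tetraspanin Tspan33 (453-fold), Shtn1 (418-fold), Phf11a (371-fold), Slamf8 (369-fold) and Arhgap22 (349-fold), each value an at-least bound. On the neutrophil side the bounds were 3090-fold for Chil1, 2320-fold for AA467197 and 2020-fold for Scrg1.

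Levels in the progenitor groups place the same genes along the lineages, as a description. These groups were GMP, common dendritic cell progenitors (CDP) and cDC precursors (pre-cDC), all from bone marrow of wild-type mice. The 75th percentile of the signal was 487 and 516 on the GMP arrays, 77.5 and 77.4 for CDP and 164 and 147 for pre-cDC. The part of these intensities in levels set against progenitors, here and above, was not tested. The mean of Irf8 was 4.83 in GMP, 8.97 in CDP, 9.08 in pre-cDC, 8.62 in cDC and 0.03 in neutrophils. Batf3 was not well above background in GMP and averaged 2.16 in pre-cDC and 6.21 in cDC, with neutrophils at -2.59. Cebpe was 5.47 in GMP and 0.31 in pre-cDC, between neutrophils (8.72) and cDC (-2.98). The Irf8 level was thus about as high in CDP and pre-cDC as in cDC, whereas that of Batf3 was higher in cDC than in pre-cDC. Mcm3 averaged 6.31 in GMP, 4.48 in cDC and -0.32 in neutrophils, and Npm1 averaged 7.78, 6.92 and 2.01 in the same order.

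**Figure D4:**
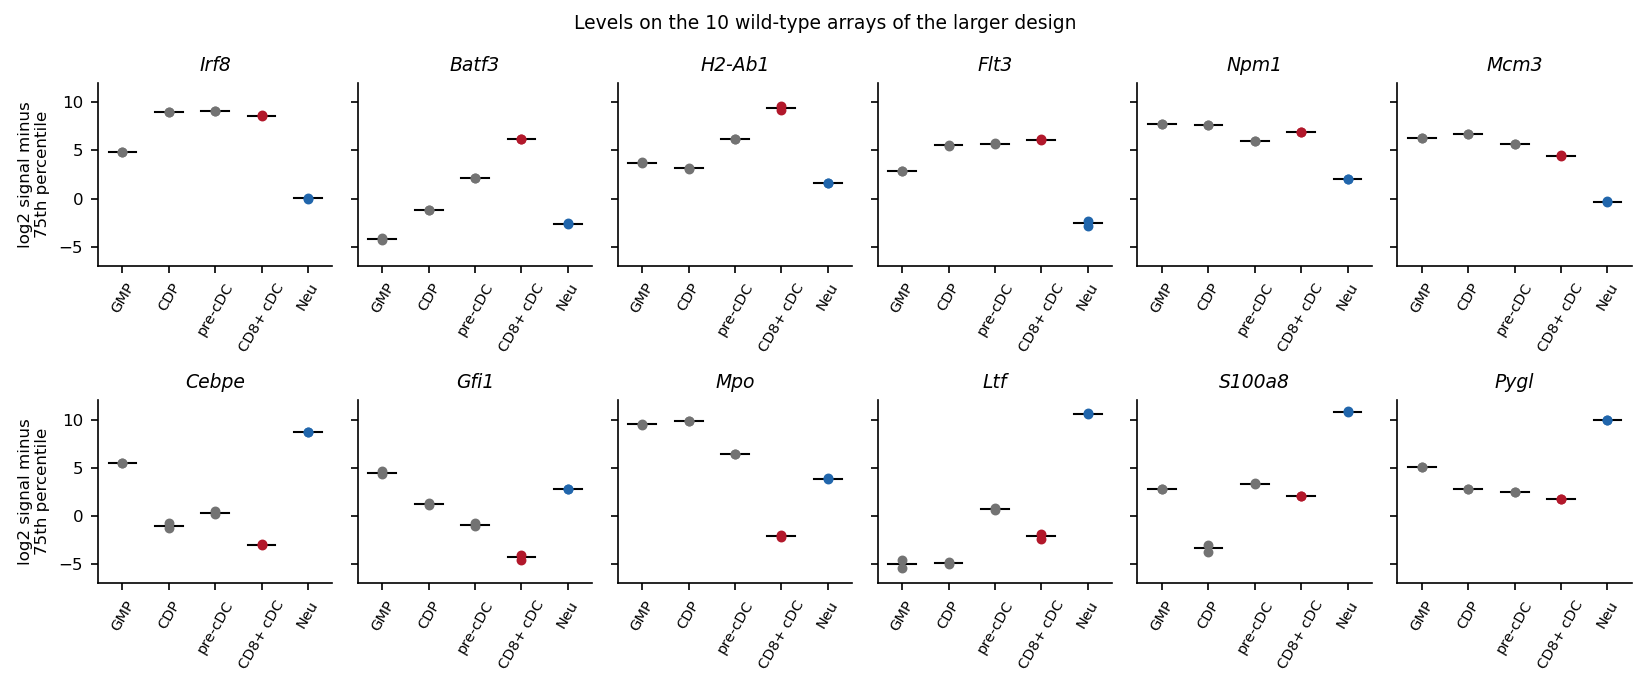
Levels of 12 genes in 5 wild-type groups of 2 arrays each (GMP, CDP, pre-cDC, CD8+ cDC and neutrophils). The vertical axis is the log2 signal minus the array's 75th percentile, points are arrays (cDC red, neutrophils blue, others grey) and bars are group means. Neutrophils have the lowest level of Irf8 (mean 0.03) and the highest of Cebpe (mean 8.72) among the groups drawn, and Mpo is higher in GMP (mean 9.49) than in neutrophils (mean 3.86).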

How the data were processed

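RNA of sorted mouse cells was amplified, labelled with Cy3 and measured on Agilent arrays in 1 colour, per the labels' protocols. The deposited scanner files hold intensity values from Agilent Feature Extraction 10.7.3.1, per the file headers: processed signals that are background-subtracted. The authors' deposited table of linear signal values, which has the same sorted values in every column, served as an alternative. The 2 CD4+ cDC arrays of a smaller design were not used here.

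Spots of a probe were averaged without control spots and outlier flags. The log2 processed signal had its array's 75th percentile subtracted. Of 55681 probes, 26762 carry 1 gene symbol and 28919 none in the annotation used here. Each gene is its brightest probe over the arrays. A gene was tested if well above background on both arrays of a group. The 12 arrays of the larger design (6 groups of 2) were fitted together in limma 3.58.1 (R 4.3.3), so all groups share the spread. In this design 1 group was GMP of IRF8 knockout mice, and the other groups were wild type. The knockout arrays thus entered the spread and the choice of the brightest probe. Benjamini-Hochberg adjustment ran over all genes tested, with calls at an adjusted p under 0.05. Missing values on an array touched 15 tested genes, which were fitted on the arrays left. The number of arrays limits the precision.

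On simulated data of 12802 genes, 84% of 100 genes changed 2-fold and 96% of 100 changed 4-fold were recovered, and 12 of 192 calls were false. The simulation changed only 200 genes, whereas 85.9% of the genes tested were called here. Its shares therefore do not carry over to this comparison. The members and gene lists were chosen with earlier results of these data known. Genes named are the 12 largest differences in each direction among those measured on all 4 arrays, the 10 largest at-least folds in each direction, the 5 largest per list and direction, uncalled members, and all members of the transcription factor lists and of lists of 13 or fewer; not every member so chosen is printed, and some are not reported here. Replicate numbers did not pair samples: deviations correlated at 0.023 between cDC and neutrophils, and at -0.0807 to 0.0337 over all 15 pairs of groups. Alternatives covered scaling, background correction, filter, probe choice, samples in the fit, replicate block and each array left out.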

Additional observations from a re-analysis of the deposited data

How the results depend on the processing

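The count of 11012 genes called stayed within 1.5 times under other scalings, normexp, the authors' table, the filters, probe means and a fit on 4 arrays. Testing every probe gave 22670 calls (10659 higher in cDC and 12011 in neutrophils; 4896 and 3825 by at least 4-fold). Requiring 4-fold left 4366. Normexp lowered the 4-fold counts to 1398 in cDC and 1137 in neutrophils. With no filter, 9058 genes were higher in neutrophils and 5677 in cDC, so that 38.5% of calls were higher in cDC, against 51.1% in the reported fit. Requiring all 4 arrays well above background left 1215 genes at least 4-fold higher in cDC, and 43.8% of calls higher in cDC. Leaving out each array in turn gave 10515 to 10662 calls, with 2604 to 2674 at least 4-fold higher in cDC and 1718 to 1749 in neutrophils. The replicate block gave 10948 calls. Other scalings moved the median of all genes by up to 0.28. Medians of the gene lists were less stable in size than in direction. Of 50 such medians, 28 moved beyond their replicate spread, without turning, under quantile normalization and 41 under array medians. The count was 44 under the percentile over detected probes, 46 under normexp, 30 with the authors' table and 32 with all 4 arrays well above background. None moved with no filter, the fit on 4 arrays or the replicate block.

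Directions turned for values near 0. Quantile normalization gave B2m -0.39, Bak1 0.43, Ctsh -0.14 and Pgm1 0.15. The authors' table gave Bak1 0.43, Ctsh -0.14, Pgm1 0.15 and Septin3 -0.01. The 75th percentile over probes detected on all arrays gave Bak1 0.26, H2-D1 0.14, Idi1 0.27, Pgm1 0.15, Tlr9 0.22 and Tyms 0.25. Probe means gave Siglech 0.09 and Spint2 0.72. Leaving out 1 array gave Irf4 -2.06 to 2.4 and Hmox1 -0.99 to 1.65. The lysosome median became 0.23 with array medians, 0.28 with that percentile, 0.18 with normexp and -0.02 to 0.01 with 1 array left out. With all 4 arrays well above background, the chemokine median was -0.37 and the BCL2 median -0.03. The plasma cell median ran from -0.05 to 0.32 with 1 array left out, and the plasmacytoid one 0.40 with probe means. The cause was not tested.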
